A study of Sus scrofa with 12 samples.

Results

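The mitochondrial ribosomal protein genes were taken as all annotated protein-coding genes of the pig genome (Sscrofa11.1) whose symbol begins with MRPL or MRPS. This gave 76 of 28593 annotated genes, 48 with an MRPL and 28 with an MRPS symbol. Of these, 50 encode proteins of the large subunit, 25 encode proteins of the small subunit, and MRPS36 carries the prefix although its product is known as a component of the 2-oxoglutarate dehydrogenase complex. MRPS18A and MRPS30 were counted with the large subunit, where their proteins are found. MRPS12 was left out by the rule because the annotation lists it as a long non-coding RNA. Its level was 10.2 ± 3.01 FPKM in Tough and 11.7 ± 1.86 FPKM in Tender (mean ± SD, n = 6 each), and the difference on the log2 scale was -0.22 with an unadjusted limma p of 0.239.

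Mitochondria keep their own ribosomes, which translate the few proteins still encoded by mitochondrial DNA, all of them subunits of the respiratory chain and of ATP synthase. All the proteins of these ribosomes are encoded in the nucleus, made on cytosolic ribosomes and imported, while their ribosomal RNA comes from mitochondrial DNA. In skeletal muscle the mitochondrial content, and with it the need for this translation, is known to be greater in slow oxidative fibres than in fast glycolytic ones.

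RNA-seq was carried out on Longissimus dorsi, the loin muscle, of 12 Iberian pigs with divergent estimated breeding values for shear force, the force needed to cut cooked meat. The Tough group (6 animals) had shear forces of 7.32 to 10.63 kg/cm2 and breeding values of 1.76 to 2.40, whereas the Tender group (6 animals) had shear forces of 2.18 to 3.43 kg/cm2 and breeding values of -1.09 to -0.98. All were purebred males, castrated according to the study's methods and finished outdoors on acorns and grass, and the loin was sampled at slaughter. The groups were chosen on breeding value, so no agent, allele or time point separates them, and the labels give neither the slaughter batch nor the sequencing lane of an animal.

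The libraries held 25798 to 31353 assembled transcripts, of which 64.0% to 74.9% fell in annotated genes on the same strand. The rest include transcripts without a strand, which were not assigned and numbered from 4399 in Tender 5 to 8422 in Tender 6. The number of reads behind each value is unknown because the files give FPKM, in which fragments are scaled to the length of the transcript and to all mapped fragments of the library, and no counts. In bulk muscle, fewer cells of a type and less RNA per cell cannot be told apart. The muscle label was checked with 9 skeletal muscle genes, which summed to 33703 to 46783 FPKM in Tough and 18769 to 43691 FPKM in Tender, although CKM, DES, TNNI2 and TNNC2 were listed at 0 in 7, 5, 4 and 2 libraries.

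The 76 genes are spread over 17 chromosomes, with 10 on chromosome 3, 8 each on chromosomes 2 and 12, and 2 on unplaced scaffolds. They are short genes with a median coding length of 660.5 bases (198 to 1499) and a median of 5 exons (1 to 17). A shared, divergent start region was common among them: 19 of the 76 members (25%) had the start of a protein-coding gene on the other strand within 1000 bases upstream, against 8.61% of 19793 protein-coding genes. The partners lay 5 to 491 bases away, with a median of 65. For MRPL46 and MRPS11, on chromosome 1, the partner was another member, and their starts were 39 bases apart.

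The promoter windows, 250 bases before to 50 bases after each annotated start, were searched for short letter patterns of factors known to act on mitochondrial genes. The core that ETS factors such as GABP bind, CCGGAAG, was present on either strand in 21 of 76 member windows (27.6%) and in 11.0% of 19788 windows of the same length. The YY1 pattern AAGATGGCG was present in 5 member windows (6.58%) and in 1.47% of all windows. The NRF1 pattern GCGCATGCG was present in 4 member windows (5.26%) and in 1.95% of all windows, but with 1 more base, which makes it the full palindrome, it was left in 1 member window (1.32%) and in 1.13% of all windows, so the share for NRF1 depends on the letters searched. In none of the member windows did matches to different patterns overlap, and 26 of the 76 held at least 1 match (34.2%, against 13.6% of all windows). These are matches of letters and not evidence of binding, and the median GC content of the windows was 60.7% for members and 58.7% for all genes.

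The following windows are shown 5′ to 3′ on the strand of the gene, from the Sscrofa11.1 genome, in lower case with pattern matches in capitals. The first covers the stretch between the starts of the divergent MRPL46 and MRPS11. Its YY1 match begins 30 bases past the annotated MRPL46 start, lies inside the windows of both genes and was therefore counted for each. MRPL35, one of 3 members with both an NRF1 and an ETS match, holds the full NRF1 palindrome, which matches on both strands, MRPS34 has 3 matches of the ETS core, all on the reverse strand, and MRPL12 had the highest level among the members with a transcript in every library. MRPS6, MRPS5 and MRPS9 are shown because they had the smallest unadjusted p between the groups among those members, and none of the patterns was found in their windows.
MRPL46, chr1:191321740-191322039, plus strand: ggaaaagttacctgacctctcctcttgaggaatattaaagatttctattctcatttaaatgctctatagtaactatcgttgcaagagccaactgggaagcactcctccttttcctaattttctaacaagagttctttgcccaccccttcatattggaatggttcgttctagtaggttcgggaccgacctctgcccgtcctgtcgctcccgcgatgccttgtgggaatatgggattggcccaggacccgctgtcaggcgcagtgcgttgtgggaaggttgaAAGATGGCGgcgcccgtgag
MRPL35, chr3:58575061-58575360, minus strand: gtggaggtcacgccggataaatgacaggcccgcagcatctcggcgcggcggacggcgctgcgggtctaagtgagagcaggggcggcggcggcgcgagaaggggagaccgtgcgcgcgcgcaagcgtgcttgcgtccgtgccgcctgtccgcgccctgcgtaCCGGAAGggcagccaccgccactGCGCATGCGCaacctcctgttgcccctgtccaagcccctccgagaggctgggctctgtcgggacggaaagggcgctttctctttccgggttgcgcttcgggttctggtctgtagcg
MRPS34, chr3:40193828-40194127, plus strand: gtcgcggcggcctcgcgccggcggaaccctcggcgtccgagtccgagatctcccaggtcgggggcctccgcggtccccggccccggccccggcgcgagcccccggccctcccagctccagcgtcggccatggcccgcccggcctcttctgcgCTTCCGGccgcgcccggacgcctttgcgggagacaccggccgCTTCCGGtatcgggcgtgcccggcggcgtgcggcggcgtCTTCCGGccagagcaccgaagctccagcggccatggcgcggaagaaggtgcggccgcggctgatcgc
MRPL12, chr12:1203768-1204067, minus strand: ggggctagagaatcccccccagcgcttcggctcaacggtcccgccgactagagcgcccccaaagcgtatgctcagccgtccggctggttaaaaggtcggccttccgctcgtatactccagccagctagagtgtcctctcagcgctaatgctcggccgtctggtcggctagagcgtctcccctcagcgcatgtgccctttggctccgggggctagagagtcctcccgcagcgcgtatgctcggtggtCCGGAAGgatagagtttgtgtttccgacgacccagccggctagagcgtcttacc
MRPS6, chr13:197687656-197687955, plus strand: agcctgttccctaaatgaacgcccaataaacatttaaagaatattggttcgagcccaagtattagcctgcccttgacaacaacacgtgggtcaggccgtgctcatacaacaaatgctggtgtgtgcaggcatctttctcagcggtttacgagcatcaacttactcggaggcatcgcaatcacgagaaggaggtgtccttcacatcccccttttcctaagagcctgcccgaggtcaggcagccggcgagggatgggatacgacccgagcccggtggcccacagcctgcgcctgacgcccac
MRPS5, chr3:46137316-46137615, plus strand: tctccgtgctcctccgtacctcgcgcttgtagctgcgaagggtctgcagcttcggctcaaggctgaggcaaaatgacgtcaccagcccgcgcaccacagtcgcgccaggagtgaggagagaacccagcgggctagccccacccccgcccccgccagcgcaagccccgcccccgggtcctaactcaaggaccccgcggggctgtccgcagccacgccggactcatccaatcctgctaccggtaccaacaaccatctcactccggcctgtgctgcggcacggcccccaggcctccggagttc
MRPS9, chr3:49681388-49681687, minus strand: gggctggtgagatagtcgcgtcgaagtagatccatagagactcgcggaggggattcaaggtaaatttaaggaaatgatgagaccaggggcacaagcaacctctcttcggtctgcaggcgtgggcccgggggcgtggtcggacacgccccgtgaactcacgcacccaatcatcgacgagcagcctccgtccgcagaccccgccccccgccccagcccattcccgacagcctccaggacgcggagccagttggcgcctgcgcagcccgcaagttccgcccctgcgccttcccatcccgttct

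Both genes of the divergent pair were expressed. MRPL46, a protein of the central protuberance, ranged from 7.37 to 12.4 FPKM (median 10.5) in Tough and from 10.3 to 13.2 FPKM (median 11.06) in Tender. MRPS11, a small subunit protein kept from bacteria, ranged from 10.9 to 20.3 FPKM (median 14.0) in Tough and from 13.3 to 19.7 FPKM (median 17.2) in Tender. The groups overlapped for both, and over the 12 libraries the log2 levels of the pair had a Pearson correlation of 0.65, given as a description because the values share the depth and composition of each library.

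All 76 genes were detected in the muscle. A transcript was assigned to 64 of them in every library, and the other 12 were listed at 0 in 1 to 10 libraries. Among the 64, the mean level had a median of 14.2 FPKM (0.386 to 58.2), against 3.45 FPKM over the 8087 genes that passed the low-level filter and had a transcript in every library, and 40 members reached 10 FPKM. Large subunit members had a median of 14.8 FPKM and small subunit members one of 13.6 FPKM.

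The highest levels belonged to large subunit members. MRPL12, which forms the stalk that recruits translation factors, ranged from 46.4 to 77.1 FPKM (median 53.1) in Tough and from 48.1 to 69.5 FPKM (median 57.0) in Tender. MRPL57 ranged from 39.1 to 76.5 FPKM (median 46.0) in Tough and from 46.2 to 68.4 FPKM (median 52.4) in Tender. For MRPL33, a small protein kept from bacteria, the values were 32.1 to 56.8 FPKM (median 46.1) in Tough and 36.4 to 69.9 FPKM (median 48.5) in Tender. In all 3 genes the groups overlapped almost completely, and Tough 1 held the highest Tough value. Their log2 fold changes (Tough over Tender) were -0.06, -0.08 and -0.14, each smaller than its standard error of 0.14, 0.17 and 0.19.

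At the other end of the range, MRPS30 had a mean of 0.386 FPKM and MRPL1 one of 0.437 FPKM, and both stayed under the filter of 0.5 FPKM and were not tested. These values depend on the annotated length: the merged exons of MRPS30 span 19258 bases and those of MRPL1 14048 bases for coding lengths of 1499 and 1055, and the plain sums of transcript FPKM, with no length weights, were 5.57 and 3.57. MRPS14, a small subunit protein of the decoding region, was the lowest of the tested members with a transcript in every library on this scale (its plain sum was 10.002 FPKM, above the 2.90 FPKM of MRPL50), at 1.43 to 2.51 FPKM (median 1.77) in Tough and 1.64 to 2.80 FPKM (median 1.81) in Tender. Neighbours in the order of levels mostly differed by less than their spread between libraries, as the plot of levels shows.

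**Figure D1:**
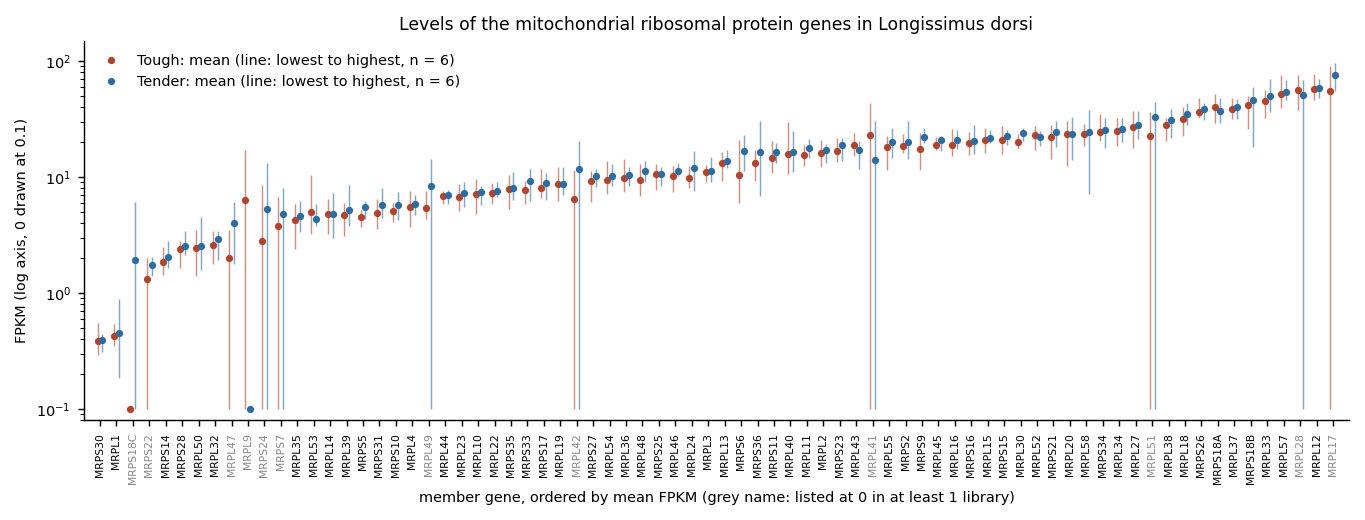
Mean FPKM of the 76 members (log axis) in Tough (red) and Tender (blue), with lines from the lowest to the highest of 6 libraries and values of 0 drawn at 0.1. Levels run from 0.386 FPKM for MRPS30 to 65.3 FPKM for MRPL17, and the lines of the groups overlap for every member.

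The main comparison asked whether these genes differ between tough and tender loins. A gene was called when its limma p was 0.05 or lower, its Benjamini-Hochberg adjusted p was 0.10 or lower and the groups differed at least 1.5-fold. No member was called, nor was any of the 9192 genes tested (0%), and the exact Wilcoxon test also gave 0 calls. The smallest adjusted p was 0.669 over all genes and 0.999927 over the members. Before adjustment, the Wilcoxon test, which gave no p for genes with tied values, left 173 genes with p of 0.05 or lower. Limma gave 227, of which 161 were higher in Tender (1.75%) and 66 higher in Tough (0.718%). With median-of-ratios scaling this split was 142 against 148, and with quantile normalization 151 against 150. Of the 74 members tested, 3 reached that level with higher expression in Tender (MRPS6, MRPS5 and MRPS9, all small subunit proteins). MRPL9 alone reached it with higher values in Tough, but it was listed at 0 in every Tender library and passed the filter through Tough alone. No member had groups that did not overlap, against 0.0762% of genes tested with all Tender libraries above all Tough ones and 0.0326% with the reverse.

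MRPS6 showed the largest difference among the 62 tested members with a transcript in every library, and the only one of at least 1.5-fold. It encodes a protein of the small subunit platform, and the gene lies at chr13:197687906-197756773 on the plus strand, with 4 merged exons. Its level was 5.93 to 20.8 FPKM (median 8.89) in Tough and 11.3 to 23.1 FPKM (median 16.6) in Tender. In Tough, 5 of 6 libraries were below the lowest Tender library, and the exception, Tough 1, was above 5 of the Tender libraries. The log2 fold change was -0.75 ± 0.27 (SE), with an unadjusted limma p of 0.0152 and an exact two-sided permutation p of 0.0281. Without Tough 1 the log2 fold change was -0.97 and the unadjusted limma p 0.000395.

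MRPS6 shares its locus with SLC5A3, a myo-inositol transporter gene on the same strand. Among the 15 transcripts assigned to MRPS6, the lowest share of bases in MRPS6 exons was 99.6%, and SLC5A3 itself was listed at 0 in every library.

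MRPS5 and MRPS9 lie on chromosome 3, as does MRPL30, the member with the next smallest p among those with a transcript in every library. MRPS5, a protein at the messenger RNA entry site (chr3:46137566-46169403, plus strand, 14 merged exons), ranged from 3.69 to 5.23 FPKM (median 4.67) in Tough and from 4.38 to 6.18 FPKM (median 5.60) in Tender. Apart from Tender 2, every Tender library exceeded every Tough library. The log2 fold change was -0.26 ± 0.11 (SE), with a limma p of 0.0401 and an exact permutation p of 0.0260. With the rule of 90% of bases in the gene the log2 fold change was -0.82, with a limma p of 0.148, and with plain sums it was -0.40, with a limma p of 0.0624. The limma p was 0.0901 with median-of-ratios scaling and 0.0843 with quantile normalization.

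MRPS9, a protein of the small subunit head (chr3:49626796-49681437, minus strand, 12 merged exons), ranged from 11.4 to 24.1 FPKM (median 17.6) in Tough and from 19.8 to 26.6 FPKM (median 21.3) in Tender. The groups overlapped through Tough 1 and Tough 3, and the other 4 Tough libraries were below all Tender ones. The log2 fold change was -0.38 ± 0.17 (SE), with a limma p of 0.0497 and an exact permutation p of 0.0563. MRPL30, a large subunit protein (chr3:55041645-55054439, minus strand, 6 merged exons), ranged from 17.97 to 23.4 FPKM (median 20.0) in Tough and from 20.3 to 26.4 FPKM (median 23.9) in Tender. Its log2 fold change was -0.23 ± 0.11 (SE), with a limma p of 0.0502 and an exact permutation p of 0.0238. This direction did not hold under a stricter assignment: with only transcripts having 90% of their bases in the gene, the log2 fold change of MRPL30 was 0.67.

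**Figure D2:**
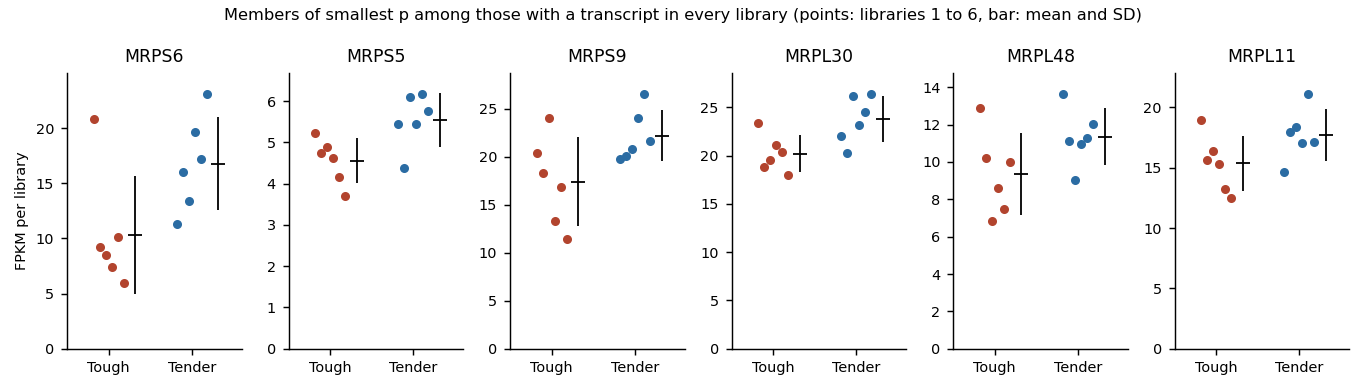
FPKM of 6 members in each library of Tough (red) and Tender (blue), with the mean and SD beside the points and axes from 0. In MRPS6, Tough 1 (20.8 FPKM) stands above the 5 other Tough libraries, which lie between 5.93 and 10.1 FPKM, and the groups overlap in all 6 genes.

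Among the stalk proteins and their base, MRPL11 had the smallest p. This protein of the stalk base ranged from 12.5 to 19.0 FPKM (median 15.5) in Tough and from 14.7 to 21.1 FPKM (median 17.6) in Tender, with a log2 fold change of -0.20 ± 0.13 (SE) and a limma p of 0.128. The 5 genes of this group (with MRPL10, MRPL12, MRPL53 and MRPL54) gave no unadjusted p of at most 0.05. Of the 5, 4 had a value below 0, beside 61.2% of all tested genes with a transcript in every library, and the median was -0.07. MRPL53 had a log2 fold change of 0.07, and all 13 of its transcripts also fell in the annotated exons of CCDC142, so its values cannot be told apart from those of that gene.

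In the central protuberance, all 5 members (MRPL18, MRPL38, MRPL40, MRPL46 and MRPL48) had log2 fold changes below 0, with a median of -0.16. Among tested genes with a transcript in every library, this held for 61.2% of all genes and 90.3% of the members. None of the 5 had an unadjusted p of 0.05 or lower. MRPL48 ranged from 6.84 to 12.9 FPKM (median 9.32) in Tough and from 9.03 to 13.7 FPKM (median 11.2) in Tender. Its groups overlapped widely, and the log2 fold change was -0.29 ± 0.16 (SE), with a limma p of 0.0889 and an exact permutation p of 0.0887.

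Of the 8 members around the peptide exit and the membrane side, 6 had a transcript in every library. All 6 were below 0, with a median of -0.10, against 61.2% of all such genes. MRPL17 and MRPL47 were listed at 0 in Tough libraries only and are described with the genes listed at 0. MRPL45, which anchors the ribosome to the inner membrane, ranged from 17.0 to 22.0 FPKM (median 18.5) in Tough and from 16.8 to 22.6 FPKM (median 21.4) in Tender, with a log2 fold change of -0.14 ± 0.11 (SE, limma p = 0.211 from the fit over all genes, exact permutation p = 0.0909). MRPL24 had 9.88 ± 1.74 FPKM in Tough and 11.9 ± 3.17 FPKM in Tender (mean ± SD, n = 6), with a log2 fold change of -0.23 ± 0.18 (SE). The core proteins kept from bacteria gave 8 of 9 values below 0 and a median of -0.06, among them MRPL16 with 19.1 ± 3.70 FPKM in Tough and 21.1 ± 3.14 FPKM in Tender.

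Of the small subunit members, the 21 with a transcript in every library had log2 fold changes below 0, with a median of -0.14, against 61.2% of all such genes, and 19 of them stayed below 0 with median-of-ratios scaling, 17 with quantile normalization, 17 with the 90% rule and 16 with plain sums. The other 4 (MRPS7, MRPS18C, MRPS22 and MRPS24) were listed at 0 in some libraries, and MRPS18C, at 0 in all 6 Tough libraries, passed the filter through Tender alone. Among 12 small subunit proteins kept from bacteria, MRPS7 was listed at 0 in 3 libraries and the other 11 had a median of -0.17. They included the 3 members at an unadjusted p of 0.05 or lower. None of another 10 small subunit proteins (MRPS22, MRPS23, MRPS25, MRPS26, MRPS27, MRPS28, MRPS31, MRPS33, MRPS34 and MRPS35) was at that level. The 9 of these 10 with a transcript in every library had a median of -0.09. Large subunit members with a transcript in every library gave 34 of 40 values below 0 and a median of -0.09. The difference between the subunits was not tested.

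In the S18 family, which has 3 paralogs, the values went in both directions. MRPS18A, in the large subunit, ranged from 29.4 to 52.2 FPKM (median 38.8) in Tough and from 29.3 to 48.5 FPKM (median 37.2) in Tender, with a log2 fold change of 0.10 ± 0.17 (SE). MRPS18B, in the small subunit, ranged from 26.0 to 50.01 FPKM (median 43.3) in Tough and from 18.2 to 59.3 FPKM (median 49.6) in Tender, with a log2 fold change of -0.09 ± 0.27 (SE). Each group of MRPS18B had 1 library far below the rest, Tough 6 and Tender 1. MRPS18C is described with the genes listed at 0.

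Besides MRPS18A and MRPL53, the members with a transcript in every library and a higher value in Tough were MRPL43 (0.13 ± 0.16), MRPL58 (0.06 ± 0.32), MRPL14 (0.02 ± 0.24) and MRPL52 (0.02 ± 0.13), given as the log2 fold change and its SE. MRPL58, a peptidyl-tRNA hydrolase built into the large subunit, was at 7.10 FPKM in Tender 5, while the remaining Tender libraries ran from 20.9 to 37.6 FPKM. None of these 6 differences exceeded its SE.

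The 12 genes listed at 0 in some libraries were measured again per exon base, which counts the part of every transcript in the exons of the gene merged transcripts included. MRPL9, a large subunit protein, was listed at 0 in 9 libraries, all 6 Tender ones among them, so that its higher value in Tough rested on 3 libraries. The unadjusted limma p was 0.0326 and the exact permutation p 0.182, and no fold is given against a group listed at 0. Per exon base it was present in every library, at 6.17 to 16.6 FPKM (median 10.03) in Tough and 5.91 to 9.99 FPKM (median 8.42) in Tender, and the log2 difference was 0.27 with an exact permutation p of 0.325. MRPS18C was listed at 0 in 10 libraries and gave 1.81 to 3.19 FPKM (median 2.65) in Tough and 2.19 to 6.46 FPKM (median 4.26) in Tender per exon base, a log2 difference of -0.50 with an exact permutation p of 0.0952.

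MRPL47, which sits near the peptide exit, was listed at 0 in 2 Tough libraries. Per exon base it ranged from 1.41 to 3.51 FPKM (median 2.49) in Tough and from 1.78 to 6.10 FPKM (median 3.83) in Tender, a log2 difference of -0.52 with an exact permutation p of 0.0758. MRPL17, the member with the highest mean (65.3 FPKM), was listed at 0 in Tough 1 only, and per exon base it ranged from 31.1 to 87.9 FPKM in Tough and from 53.5 to 95.5 FPKM in Tender (log2 difference -0.39, exact permutation p = 0.128). Of the remaining 8, MRPL28, MRPL41, MRPL42 and MRPS24 were present in every library per exon base, with log2 differences of 0.11, 0.30, -0.56 and -0.47 and exact permutation p of 0.784, 0.359, 0.175 and 0.396. MRPS7, MRPS22, MRPL49 and MRPL51 were still at 0 in 3, 1, 1 and 1 libraries, so no fold is given for them.

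As a group, the members leaned by a small amount to higher values in Tender. Of the 74 tested, 65 had a log2 fold change below 0 (87.8%), against 60.4% of the 9192 genes. This count takes in 12 members listed at 0 in some libraries. Among them MRPS18C passed the filter through Tender alone and MRPL9 through Tough alone, so the count is not used as support for the lean. Of the 62 tested with a transcript in every library, 56 had a log2 fold change below 0 (90.3%), against 61.2% of the 8087 genes of the same kind, and the median was -0.10 against -0.04 for all genes. Written as a fold, the median member was 1.07 times higher in Tender and the median gene 1.03 times. When libraries were scaled by median-of-ratios factors the count was 49 of 62 (79.0%) against 48.6% of all genes, and after quantile normalization 43 of 62 (69.4%) against 49.0%. Without Tough 6 it was 45 of 62 (72.6%) against 51.1%, and without Tough 1 it was 58 of 62 (93.5%) against 66.0%. Members that move together in the same libraries are not independent, so no p is given for these counts.

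**Figure D3:**
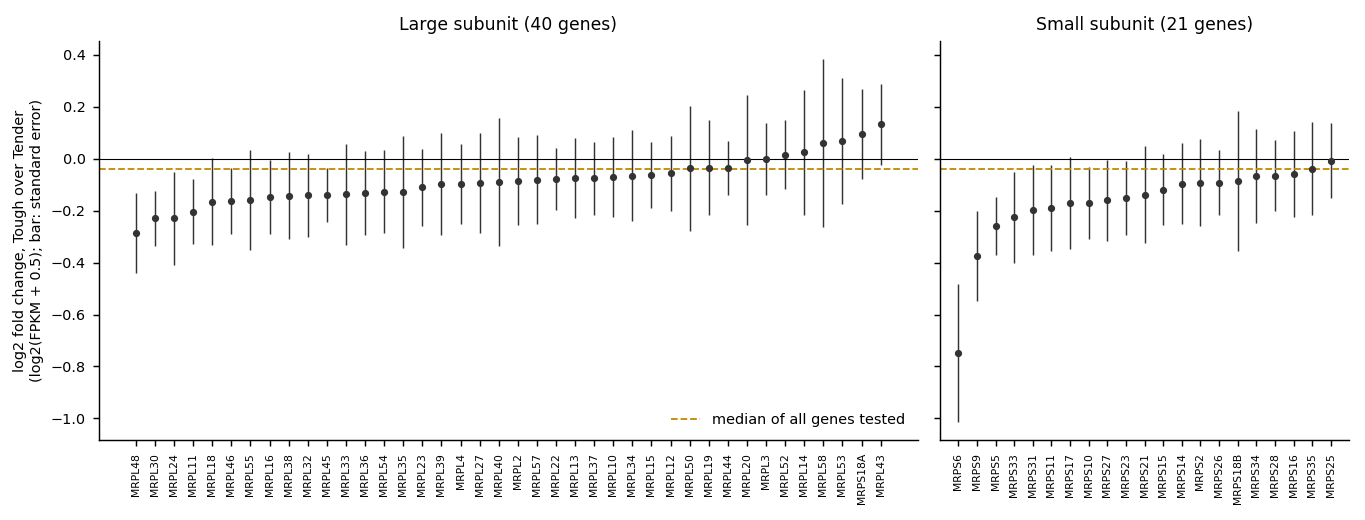
Log2 fold change (Tough over Tender, on log2(FPKM + 0.5)) with its standard error for the tested large subunit (40) and small subunit (21) members with a transcript in every library, ordered by value, the dashed line being the median of all genes. MRPS6 at -0.75 lies apart, most other bars cross 0, and all 21 small subunit values are below 0 as deposited (19 after median-of-ratios scaling and 17 after quantile normalization).

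For the 62 tested with a transcript in every library, the SD of log2 levels over the 12 libraries had a median of 0.278, against 0.311 for all such genes, with MRPL44 the lowest (0.132) and MRPS6 the highest (0.609). Much of the spread ran through whole libraries. In Tough 1, 57 of 62 members were above their own mean, with a median deviation of 0.29 on the log2 scale, and in Tender 5 there were 52, with 0.20. In Tough 6, 1 of 62 was above its mean and the median deviation was -0.35. Of the 64 members with a transcript in every library, 34 had their lowest value in Tough 6 and 19 their highest in Tough 1. The highest and the lowest library both belong to the Tough group, and all genes moved the same way in them by less (0.13 and -0.21). Respiratory chain genes moved about as far in these libraries, complex I subunits by 0.36 and -0.27 and subunits of complexes III, IV and ATP synthase by 0.38 and -0.34.

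**Figure D4:**
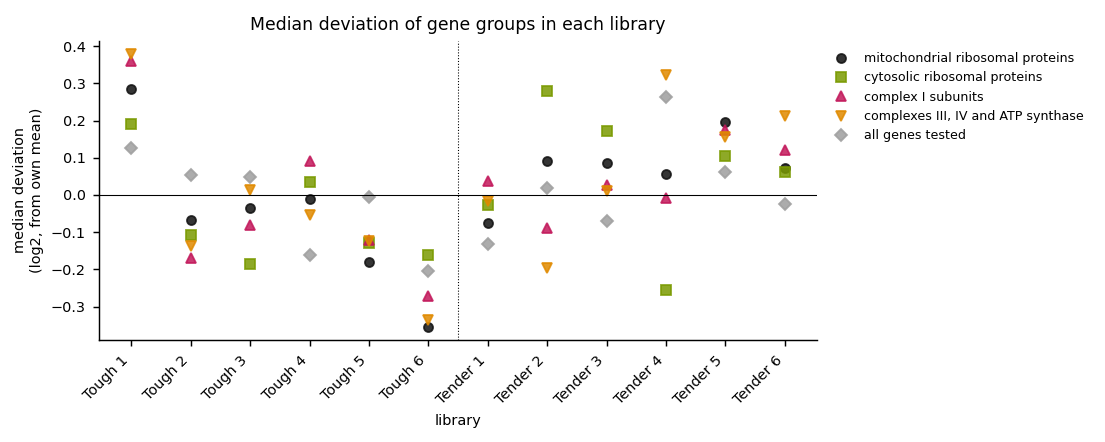
Median deviation from the gene's own mean (log2) in each library for mitochondrial ribosomal proteins, cytosolic ribosomal proteins, complex I subunits, subunits of complexes III, IV and ATP synthase, and all genes tested. The mitochondrial ribosomal proteins run from -0.35 in Tough 6 to 0.29 in Tough 1, and in Tender 4 the cytosolic ribosomal proteins (-0.25) lie opposite to the subunits of complexes III, IV and ATP synthase (0.32).

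In some libraries the deviation of a member went with the GC content of its exons. The correlation of deviation with GC content across the 62 members ran from -0.70 in Tender 4 to 0.71 in Tender 2, and over all genes it was -0.54 and 0.46 in those libraries. In Tough 5, Tender 5, Tough 6 and Tender 1 the correlation across members was near 0 (-0.0068, 0.047, -0.056 and -0.085). The values are across genes, which are not independent replicates. In Tender 4 the 20 members lowest in GC (34.9% to 47.0%) had a median deviation of 0.43 and the 20 highest (56.3% to 70.6%) one of -0.23, and in Tender 2 these were -0.15 and 0.26. Members of like GC content varied together, with a median pairwise Pearson correlation over the 12 libraries of 0.57 among the 20 lowest and 0.59 among the 20 highest, whereas pairs across these sets had a median of 0.09. Over all 1891 pairs of members it was 0.40, against 0.18 over all pairs of genes. The median log2 fold change was -0.11 in the lowest and -0.09 in the highest 20, but these medians moved with single libraries, to -0.04 and -0.16 without Tender 4, to -0.15 and -0.06 without Tender 2 and to -0.06 and -0.14 without Tender 6, and with quantile normalization they were -0.06 and -0.0066. Removing a line on GC content in each library left 55 of 62 members below 0.

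**Figure D5:**
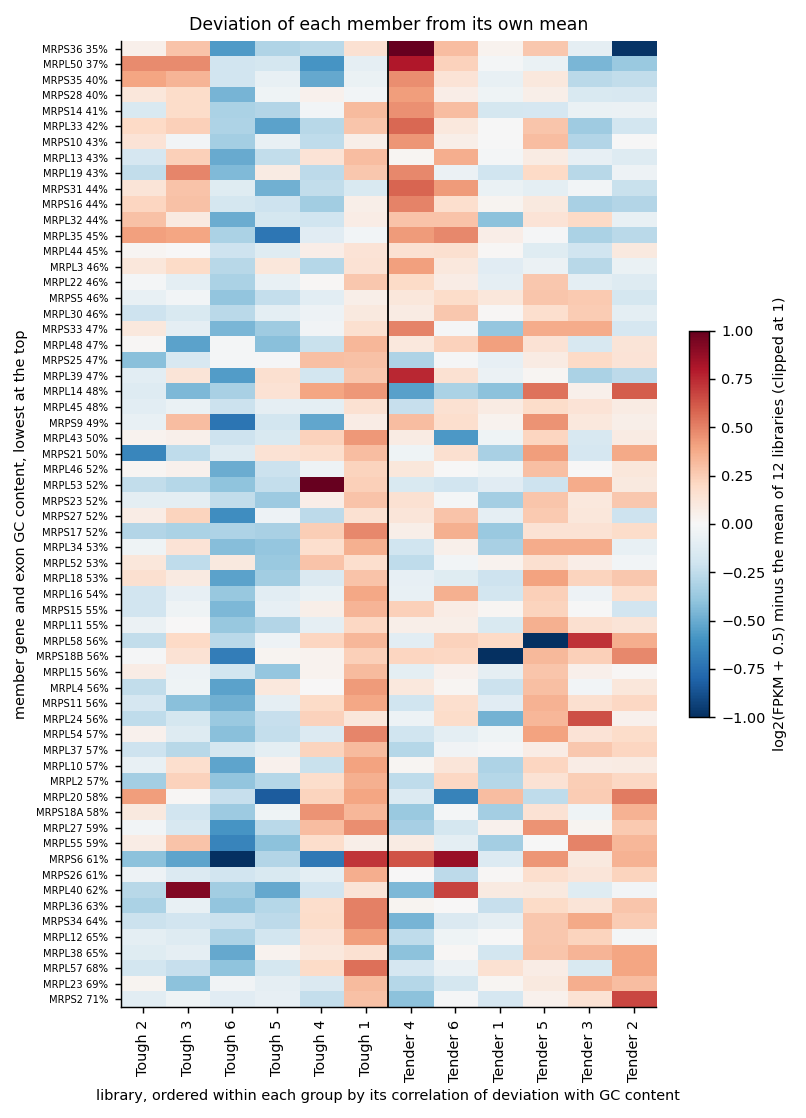
Deviation of log2(FPKM + 0.5) from the mean of 12 libraries (red above, blue below, clipped at 1) for 62 members in rows, ordered from low to high exon GC content, and libraries in columns, ordered within each group by their correlation of deviation with GC content. Tender 4 is red at the top and blue at the bottom, Tender 2 the reverse, Tough 1 is red and Tough 6 blue over nearly all rows.

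The genes that work with the mitochondrial ribosome were followed in the same fit. Of 14 mitochondrial translation factors tested, 10 were below 0 (71.4%, against 60.4% of all genes tested). At an unadjusted p of 0.05 or lower, none had higher expression in Tough and 1 had higher expression in Tender. This was MRRF, the factor that releases ribosomes after termination, at 3.11 ± 0.770 FPKM in Tough and 4.39 ± 0.545 FPKM in Tender (mean ± SD, n = 6), with a log2 fold change of -0.46 ± 0.14 (SE), a limma p of 0.00770 and an adjusted p of 0.999927. None of the 24 assembly factors, 17 aminoacyl-tRNA enzymes or 16 genes of mitochondrial DNA and RNA synthesis was at that level. Their values below 0 numbered 15 (62.5%), 12 (70.6%) and 12 (75%), beside the 60.4% of all genes tested. The medians were -0.06, -0.09 and -0.13, and each list includes genes listed at 0 in some libraries. Of the 4 mitoribosomal proteins tested that carry other symbols, 1 was below 0, with a median of 0.04. Transcripts of mitochondrial DNA were not analysed here.

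Among 7 nuclear regulators of mitochondrial genes tested, PPARGC1A, a coactivator of mitochondrial biogenesis, was at 0.931 ± 0.360 FPKM in Tough and 2.00 ± 1.25 FPKM in Tender, with a log2 fold change of -0.70 ± 0.29 (SE) and a limma p of 0.0331. PPARGC1B, its relative, went the other way, at 1.31 ± 0.556 FPKM in Tough and 0.703 ± 0.258 FPKM in Tender, with a log2 fold change of 0.56 ± 0.23 (SE) and a limma p of 0.0335. Neither met the adjusted threshold. GABPA, a subunit of the ETS factor named above, had a mean of 2.60 FPKM in both groups, and NRF1 was under the filter, with 0.395 and 0.396 FPKM.

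Other ribosomal and mitochondrial genes also had mostly values below 0. Cytosolic ribosomal proteins gave 66 of 80 values below 0, with a median of -0.14 and 3 genes at an unadjusted p of 0.05 or lower, all higher in Tender (RPL36, RPS15A and RPS12). Complex I subunits gave 28 of 37 below 0 (median -0.12), and subunits of complexes III, IV and ATP synthase 19 of 26 (median -0.12). Neither list had a gene at that level. These counts include genes listed at 0 in some libraries and stand beside 60.4% of all genes tested. With a transcript in every library, 49 of 58 cytosolic ribosomal proteins (median -0.13) and 22 of 30 complex I subunits (median -0.06) were below 0. For complexes III, IV and ATP synthase it was 16 of 20 (median -0.12), against 61.2% of all such genes (median -0.04).

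Markers of fibre type and of other cells were counted among those tested with a transcript in every library, beside the 61.2% of all such genes with values below 0. The 5 muscle markers with a transcript in every library had values above 0, and no direction is given for CKM, DES, TNNI2 and TNNC2, which were listed at 0 in some libraries. Of the slow fibre genes, 7 of 7 were below 0, with a median of -0.39. The summed levels of all 8 slow fibre genes were 4464 to 9738 FPKM in Tough and 7072 to 12336 FPKM in Tender. MYL2, a slow myosin light chain, had a limma p of 0.00881 and an exact permutation p of 0.0152. Endothelial markers were below 0 in 7 of 7 (summed 16.8 to 34.8 FPKM in Tough and 27.2 to 44.1 FPKM in Tender) and macrophage markers in 3 of 4 (9.17 to 32.6 and 11.4 to 67.5 FPKM). Adipocyte markers were below 0 in 2 of 4 (48.9 to 99.5 and 54.1 to 99.2 FPKM) and fibroblast markers in 0 of 6 (69.4 to 210.3 and 67.4 to 156.4 FPKM). The sums take in every marker of a list, also those left out of the counts. The part of fibre type and of other cells in the values of the mitochondrial ribosomal proteins was not tested.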

How the data were processed

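Paired-end RNA-seq of Longissimus dorsi from 6 Tough and 6 Tender pigs was analysed. Per the labels and the study's methods, the authors used FastQC and Trim Galore on the reads, TopHat2 2.1.0 for mapping to Sscrofa11.1, and assembled transcripts of each library with Cufflinks 2.2.1. The deposited values are FPKM per assembled transcript, normalised by the authors to transcript length and mapped fragments, with a Cufflinks score per transcript in the deposited files that was not used here. Whether counting used strand is not given in the sources used here.

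Transcripts were assigned to every annotated gene on the same strand that held at least 50% of their exonic bases, and gene FPKM was the sum of FPKM times transcript length over the gene's merged exon length. Transcripts without a strand were left out. Scaffolds were matched to the annotation by at least 10 shared introns (21 scaffolds). Where a gene is fragmented or merged in assembly it can be listed at 0, and long annotated exons lower the value. Transcripts of mitochondrial DNA were not analysed here.

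The test was limma 3.58.1 (R 4.3.3, trend) on log2(FPKM + 0.5) for genes whose mean exceeded 0.5 FPKM, so that fold changes of low genes are understated, with Benjamini-Hochberg adjustment over 9192 genes. Single genes also had a two-sided exact permutation test over 924 splits (smallest p 0.00216). Each sample is 1 animal, and depth is unknown, so no counting interval is given. On simulated data for this comparison (9192 genes, 100 changed at each size), 65% of genes changed by a log2 value of 1 and 98% of those changed by 2 were recovered, with 17 false calls. The values were simulated as independent and normal, with the largest spreads capped and without shifts of whole libraries. These rates therefore may be too high for the real data and do not apply to differences as small as those of most members. Members and gene lists were chosen with earlier results of these data known. Members were named by smallest p in each direction and role, highest and lowest level, values at 0 and membership of the S18 family, and other genes by smallest p in their list or where a result needed them. Alternatives covered the pseudocount, the filter, scaling, transcript assignment, the test and leaving out each library, and removal of GC content and assignment of strandless transcripts were chosen after seeing the data. Promoter windows and exon GC content were read from the NCBI Sscrofa11.1 genome. Scripts used scipy 1.17.1 and pandas 2.3.3 under Python 3.11.15, with numpy 2.4.6, and figures were drawn in matplotlib 3.10.9.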

Additional observations from a re-analysis of the deposited data

Results flagged for a closer look

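In 12 of 128 groups of 6 libraries (64 members with a transcript in every library, 2 groups each), 1 library stood far from the other 5 by Dixon's test, which chance does in about 1 in 20 groups. In Tough 1 the high values were MRPS6 with 20.8 FPKM (others 5.93 to 10.1), MRPL16 with 26.1 FPKM (15.1 to 18.9), MRPS2 with 23.4 FPKM (16.1 to 18.5) and MRPS26 with 47.7 FPKM (32.3 to 35.5). In Tender 4, MRPL39 was high with 8.51 FPKM (3.79 to 5.41), MRPS28 was high with 3.42 FPKM (2.12 to 2.57), and MRPL45 was low with 16.8 FPKM (20.9 to 22.6).

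MRPS18B was low in 1 library of each group, with 26.0 FPKM in Tough 6 (others 41.9 to 50.01) and 18.2 FPKM in Tender 1 (48.9 to 59.3). The remaining values were MRPL40 in Tough 3 with 29.7 FPKM (10.7 to 16.9), MRPL53 in Tough 4 with 10.3 FPKM (3.21 to 5.28) and MRPL15 in Tender 5 with 25.7 FPKM (19.7 to 21.9), all high.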

How the results depend on the processing

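Of the alternatives, 854 values kept their direction or stayed near the reported value, 15 counts moved and 33 fold changes turned. The 854 include fold changes under robust limma, the replicate block and the changed filters, which leave a fold change as it is and could not turn it. No gene was called under any alternative, though the exact Wilcoxon test could hardly call one after adjustment. The 3 members at an unadjusted p of 0.05 or lower and higher in Tender (MRPS6, MRPS5 and MRPS9) numbered 0 with the replicate number as a block, where 1 other member, MRPL47, had a p of 0.0146, so that 1 member was counted. The count was 1 to 7 when a library was left out (7 without Tough 1, and 1 without Tough 2, Tender 3, Tender 5 or Tender 6). The numbers do not pair the animals: same-numbered libraries had correlations of -0.449 to -0.0791, and the block gave limma p of 0.0530 for MRPS6, 0.121 for MRPS5 and 0.0983 for MRPS9. The 1 member higher in Tough (MRPL9) became 0 with 90% of a transcript required in the gene, 0 per exon base and 2 with plain sums. That count was 0 to 1 when a library was left out (0 without Tough 2, 4 or 6 or Tender 2 or 4). The exact Wilcoxon test gave no p for genes with tied values, so MRPL9, at 0 in 9 libraries, was not tested by it.

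Directions turned mostly in members near 0 or listed at 0. For MRPL49 and MRPL51, which have a library at 0, the values are fitted differences that depend on the pseudocount and not folds, and their mean FPKM per exon base was higher in Tender (7.41 against 5.27 and 23.9 against 19.2). MRPL49 was 0.34 with a pseudocount of 0.1, 0.044 with median-of-ratios scaling, 0.047 after quantile normalization, 0.46 with the 90% rule, 0.092 per exon base and 0.0048 after GC removal. The 90% rule gave 0.67 for MRPL30 and 0.66 for MRPS24. Per exon base MRPL51 was 0.35 and MRPL58 -0.13, plain sums gave -0.16 for MRPL53 and 0.26 for MRPS14, and quantile normalization gave 0.048 for MRPL12. With 1 library left out, the range was -0.71 to 0.27 for MRPL49, -0.15 to 0.00052 for MRPL12, -0.15 to 1.28 for MRPL28, -0.040 to 0.091 for MRPL52, -0.15 to 0.16 for MRPL53, -0.25 to 0.21 for MRPL58 and -0.34 to 0.043 for MRPS18B. The cause was not tested. Depth is unknown, which limits every low value.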
